A study of Mus musculus with 9 samples.

Results

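The Toll-like receptor and MyD88 genes were followed through lymphomas of Bcl6 and Smc3/Bcl6 mice. Rows of the deposited count table whose symbol was Tlr1, Tlr2, Tlr3, Tlr4, Tlr7, Tlr9, Myd88, Unc93b1, Irak1 or Irak4 were taken, 10 of the 41128 genes listed, and each symbol was found. All 10 passed the filter on low counts, as did 14057 genes in the whole table. RNA was sequenced from 3 Bcl6 tumors (Smc3 wt/wt;Cγ1 wt/cre;IµBcl6) and 6 Smc3/Bcl6 tumors (Smc3 wt/-;Cγ1 wt/cre;IµBcl6), with 1 library per tumor. Both genotypes carried IµBcl6, which holds Bcl6 on in B cells from the immunoglobulin heavy chain locus, and Cγ1-Cre, which acts in B cells of the germinal center reaction. One copy of Smc3 was thus targeted in those B cells of Smc3/Bcl6 mice and not in the other cells of the node. The labels name a lymph node as the tissue, and the mesenteric one for replicate 1 of each genotype only, whereas the study's text gives the mesenteric lymph node for the tumors of both genotypes, so the label may not mark a difference in tissue. Age and sex of the mice are not given in the sources used here.

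Toll-like receptors bind molecules of microbes, and also nucleic acids of the body's own cells. Tlr1, Tlr2 and Tlr4 sit at the cell surface, whereas Tlr3, Tlr7 and Tlr9 read RNA or DNA inside endosomes, to which the chaperone Unc93b1 carries them. Apart from Tlr3, these receptors signal through the adaptor Myd88, which gathers the kinases Irak4 and Irak1 into a complex that leads to NF-κB. B cells, macrophages and dendritic cells all use the pathway, and activating mutations of MYD88 are known from human B-cell lymphomas.

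Total counts ranged from 10156728 to 17774577 per library. Smc3/Bcl6 tumor 2 stood apart from the other 8 libraries, because its counts fell with gene length. The Spearman correlation across genes between exon length and the deviation of log2 CPM from the mean of the other tumors was -0.47 in that tumor and -0.03 to 0.27 in the other 8. CPM are read counts set relative to library size, here scaled by edgeR's TMM factors. Smc3 had 88.1 to 126 CPM in the Bcl6 tumors, 27.9 CPM in Smc3/Bcl6 tumor 2 and 89.7 to 111 CPM in the other 5 Smc3/Bcl6 tumors, and the groups overlapped. Its count per gene does not show which allele was read. Markers of B cells were present in every tumor, with the 10 B-cell markers summing to 3117 to 9661 CPM in Bcl6 and 5365 to 12309 CPM in Smc3/Bcl6 tumors. The 12 macrophage markers summed to 457 to 8037 CPM in Bcl6 and 276 to 8565 CPM in Smc3/Bcl6 tumors. This sum leaned on the marker Lyz2, at 96.3 to 5897 CPM, and did not rank the tumors as the mean log2 CPM used below does. Smc3/Bcl6 tumor 4 had the highest mean, 7.30, with Lyz2 at 235 CPM. The 7 T-cell markers summed to 89.3 to 1470 and 25.4 to 1580 CPM in Bcl6 and Smc3/Bcl6 tumors. Every marker of these 3 lists had reads in every tumor, except Cd163, a macrophage scavenger receptor, at 0 in Smc3/Bcl6 tumor 5. In such bulk samples fewer cells of a type and less RNA per cell cannot be told apart.

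Of the 10 genes, 1 was higher and 0 were lower in Smc3/Bcl6 tumors by the thresholds the study used for these tumors (unadjusted p below 0.1, log2 fold change beyond 0.56 in either direction). The gene was Unc93b1, and its call was lost in several of the other settings tried. These thresholds were passed by 1.28% of all genes tested in the higher direction and by 0.868% in the lower direction, 180 and 122 genes. None of the 10 had a p below 0.05 after Benjamini-Hochberg adjustment over the 14057 genes tested by edgeR's quasi-likelihood method, and neither had any other gene, although 79 of them had an unadjusted p below 0.05. DESeq2 and limma gave 209 and 1171 genes at an unadjusted p below 0.05, and also 0 after adjustment. Among the 10, the count at an unadjusted p below 0.05 was 0 by edgeR, 1 by DESeq2 and 1 by limma, in both cases Unc93b1. For 0 of the 10 genes did the genotypes separate without overlap, against 0.484% of all genes tested. The median log2 fold change was 0.07 over the 10 genes, of which 7 were positive and 3 negative. Over all genes tested it was 0.06, with 8073 positive and 5984 negative.

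**Figure D1:**
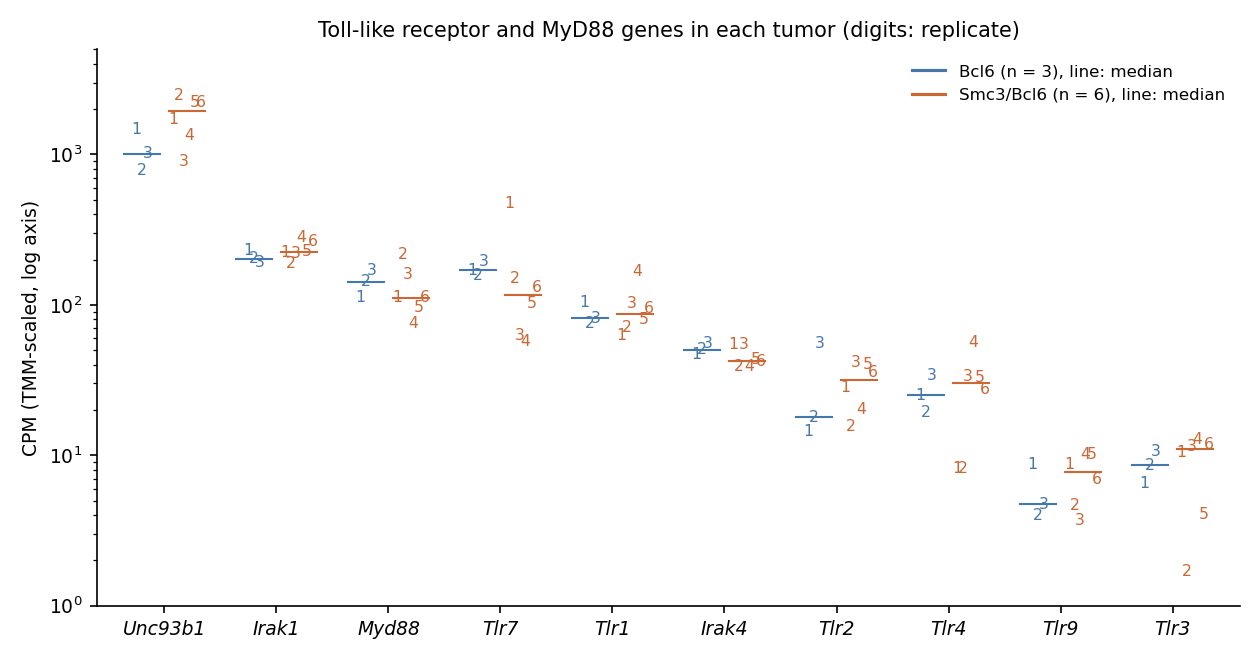
CPM (TMM-scaled, log axis) of the 10 genes in every tumor. Each digit is the replicate number of a tumor, blue for Bcl6 (n = 3) and orange for Smc3/Bcl6 (n = 6), and the line is the median of the genotype. The genotypes overlap for every gene, and Tlr7 runs from 56.7 to 473 CPM among Smc3/Bcl6 tumors but from 156 to 193 CPM among Bcl6 tumors.

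Unc93b1 (ENSMUSG00000036908.11, GRCm38 chromosome 19 from 3935186 to 3949340, plus strand), the chaperone of the endosomal receptors, was by far the most abundant of the 10. It had 1466, 785 and 1013 CPM in Bcl6 tumors 1, 2 and 3. The 6 Smc3/Bcl6 tumors had a lowest value of 896, a median of 1949 and a highest of 2447 CPM. In CPM, Smc3/Bcl6 tumors 1, 2, 5 and 6 lay above every Bcl6 tumor, whereas tumors 3 and 4 fell within the Bcl6 range. The means were 1088 ± 347 (SD, n = 3) and 1796 ± 596 (SD, n = 6), a log2 fold change of 0.72 (standard error 0.39, unadjusted p = 0.0908, adjusted p = 1.00 from edgeR). Permuting log2 CPM over the 84 ways to divide the tumors into 3 and 6 gave an exact two-sided p = 0.107, with 0.0238 the smallest it can give. The call was kept in 10 of 20 alternative settings and the value was positive in all 20. Among the tumors labelled only as lymph node, 2 Bcl6 and 5 Smc3/Bcl6, it was 1.01 (standard error 0.51, unadjusted p = 0.0796 from edgeR). When same-numbered tumors were blocked as pairs (replicates 1 to 3), it was 0.52 (standard error 0.51, unadjusted p = 0.346 from edgeR), past neither threshold. With an offset for gene length and GC content it was 0.64 (unadjusted p = 0.108 from edgeR), and without the filter on low counts 0.71 (unadjusted p = 0.114). The call was also lost without Smc3/Bcl6 tumor 2, the highest of the series in CPM (0.63, unadjusted p = 0.109 from edgeR). It was lost as well on leaving out Bcl6 tumor 2 (0.52), Bcl6 tumor 3 (0.67), or Smc3/Bcl6 tumor 1 (0.74), 5 (0.66) or 6 (0.66). The place of Smc3/Bcl6 tumor 2 depended on the scale. In TPM, described below, it had 1054, within the Bcl6 range of 804 to 1409, and Smc3/Bcl6 tumor 5 was the highest at 2264.

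Of its cargo, the endosomal receptors, none passed the thresholds with all 9 tumors. Tlr7 (ENSMUSG00000044583.8, chromosome X from 167304929 to 167330558, minus strand), a receptor for RNA of a single strand, had 170, 156 and 193 CPM in Bcl6 tumors 1, 2 and 3. In Smc3/Bcl6 tumors its lowest value was 56.7, the median 116 and the highest 473 CPM. Smc3/Bcl6 tumor 1 was the highest of all 9, and the other 5 Smc3/Bcl6 tumors lay below every Bcl6 tumor. The log2 fold change over all tumors was -0.09 (standard error 0.62, unadjusted p = 0.887 from edgeR). Without Smc3/Bcl6 tumor 1 it was -0.79 (standard error 0.36, unadjusted p = 0.0552, adjusted p = 1.00 from edgeR), past the thresholds in the lower direction. The difference for Tlr7 therefore rested on this tumor, which also had the lowest macrophage marker level. The SD of log2 CPM of Tlr7 was 0.15 among Bcl6 and 1.11 among Smc3/Bcl6 tumors, against 0.35 and 0.71 for the median gene tested. This difference in spread was not tested.

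Tlr9 (ENSMUSG00000045322.10, chromosome 9 from 106222598 to 106226883, plus strand), the receptor for unmethylated CpG DNA, was low in every tumor, with 44 to 151 reads. It had 8.73, 4.00 and 4.73 CPM in Bcl6 tumors 1, 2 and 3, and a lowest, median and highest value of 3.71, 7.77 and 10.1 CPM in Smc3/Bcl6 tumors. Bcl6 tumor 1 lay above Smc3/Bcl6 tumors 1, 2, 3 and 6, and the log2 fold change was 0.34 (standard error 0.45, unadjusted p = 0.474 from edgeR). Tlr3 (ENSMUSG00000031639.6, chromosome 8 from 45395665 to 45411080, minus strand), a receptor for paired-strand RNA that signals through Ticam1 in place of Myd88, had 6.53, 8.59 and 10.6 CPM in Bcl6 tumors. In Smc3/Bcl6 tumors it had a lowest value of 1.69, a median of 11.0 and a highest of 12.8 CPM. The lowest value was Smc3/Bcl6 tumor 2, with 16 reads, and the highest count in the series was 220 reads. The log2 fold change was 0.03 (standard error 0.58, unadjusted p = 0.962 from edgeR), and 0.24 without that tumor. The Tlr3 gene model overlaps Gm45542 on the other strand.

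Among the surface receptors, Tlr1 (ENSMUSG00000044827.6, chromosome 5 from 64924679 to 64933563, minus strand), which pairs with Tlr2 to bind bacterial lipopeptides, had 104, 74.8 and 81.6 CPM in Bcl6 tumors 1, 2 and 3. Smc3/Bcl6 tumors had a lowest value of 62.6, a median of 87.0 and a highest of 166 CPM, the last in tumor 4. The genotypes overlapped, with a log2 fold change of 0.15 (standard error 0.32, unadjusted p = 0.660 from edgeR). Tlr1 and Tlr6 are close paralogs, and how reads shared between them were counted is not stated.

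Tlr2 (ENSMUSG00000027995.9, chromosome 3 from 83836272 to 83841767, minus strand) had 14.3, 17.9 and 55.5 CPM in Bcl6 tumors 1, 2 and 3. The Smc3/Bcl6 tumors had a lowest value of 15.5, a median of 31.7 and a highest of 41.4 CPM. Bcl6 tumor 3 was thus the highest and Bcl6 tumor 1 the lowest of the series. The log2 fold change was 0.04 (standard error 0.48, unadjusted p = 0.932 from edgeR). Without Bcl6 tumor 3 it was 0.90 (standard error 0.44, unadjusted p = 0.0743, adjusted p = 1.00 from edgeR) and passed the thresholds.

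Tlr4 (ENSMUSG00000039005.8, chromosome 4 from 66827584 to 66930284, plus strand), which with Ly96 binds bacterial lipopolysaccharide, had 25.1, 19.2 and 33.6 CPM in Bcl6 tumors 1, 2 and 3. In Smc3/Bcl6 tumors the lowest value was 8.15, the median 30.2 and the highest 55.9 CPM. Smc3/Bcl6 tumors 1 and 2 lay below every Bcl6 tumor and tumor 4 above. The log2 fold change was 0.09 (standard error 0.58, unadjusted p = 0.880 from edgeR). With the replicate block, which keeps only tumors 1 to 3 of Smc3/Bcl6, it was -0.99 (standard error 0.46, unadjusted p = 0.0718, adjusted p = 0.983 from edgeR), past the thresholds in the lower direction, and -0.72 (unadjusted p = 0.123) with the block and the offset for length and GC content together.

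The adaptor Myd88 (ENSMUSG00000032508.8, chromosome 9 from 119335934 to 119341411, minus strand) had 111, 142 and 169 CPM in Bcl6 tumors 1, 2 and 3. Its lowest, median and highest values in Smc3/Bcl6 tumors were 74.9, 112 and 218 CPM. In CPM, Smc3/Bcl6 tumors 2 and 4 gave the highest and the lowest level of the series, so that the Smc3/Bcl6 range enclosed the Bcl6 range. In TPM, described below, Smc3/Bcl6 tumor 2 had 110 and tumor 3 was the highest at 200. The log2 fold change was -0.13 (standard error 0.34, unadjusted p = 0.710 from edgeR). In GENCODE M21 the gene model overlaps Slc22a14 on the same strand and Acaa1a on the other, and whether strand was used in counting is not stated.

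Of the 10 genes, the kinases varied least in CPM, and this ranking depended on the scale. In TPM, described below, Irak1 ran from 52.0 to 172 and Irak4 from 10.2 to 35.0, both lowest in Smc3/Bcl6 tumor 2. Myd88, from 77.4 to 200 TPM, and Unc93b1, from 804 to 2264 TPM, had a narrower fold range there. Irak1 (ENSMUSG00000031392.13, chromosome X from 74013914 to 74023918, minus strand), which is recruited and phosphorylated after Irak4, had 229, 203 and 191 CPM in Bcl6 tumors 1, 2 and 3, and 188, 225 and 280 CPM as lowest, median and highest value in Smc3/Bcl6 tumors. Irak4 (ENSMUSG00000059883.11, chromosome 15 from 94543643 to 94581815, plus strand), the first kinase of the complex, had 46.8, 50.2 and 55.5 CPM in Bcl6 tumors, and 38.9, 42.6 and 54.7 CPM as lowest, median and highest value in Smc3/Bcl6 tumors. Between the highest and the lowest tumor Irak1 differed by 1.49-fold and Irak4 by 1.42-fold, whereas Tlr7 differed by 8.34-fold, Tlr3 by 7.55-fold and Tlr4 by 6.86-fold. The SD of log2 CPM over the 9 tumors stood at percentile 2.53 of all genes tested for Irak1 and 3.45 for Irak4, and between 24.6 and 72.6 for the other 8 genes. The log2 fold changes were 0.17 (standard error 0.22, unadjusted p = 0.457 from edgeR) for Irak1 and -0.16 (standard error 0.21, unadjusted p = 0.456) for Irak4. The Irak4 gene model overlaps Twf1 on the other strand.

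**Figure D2:**
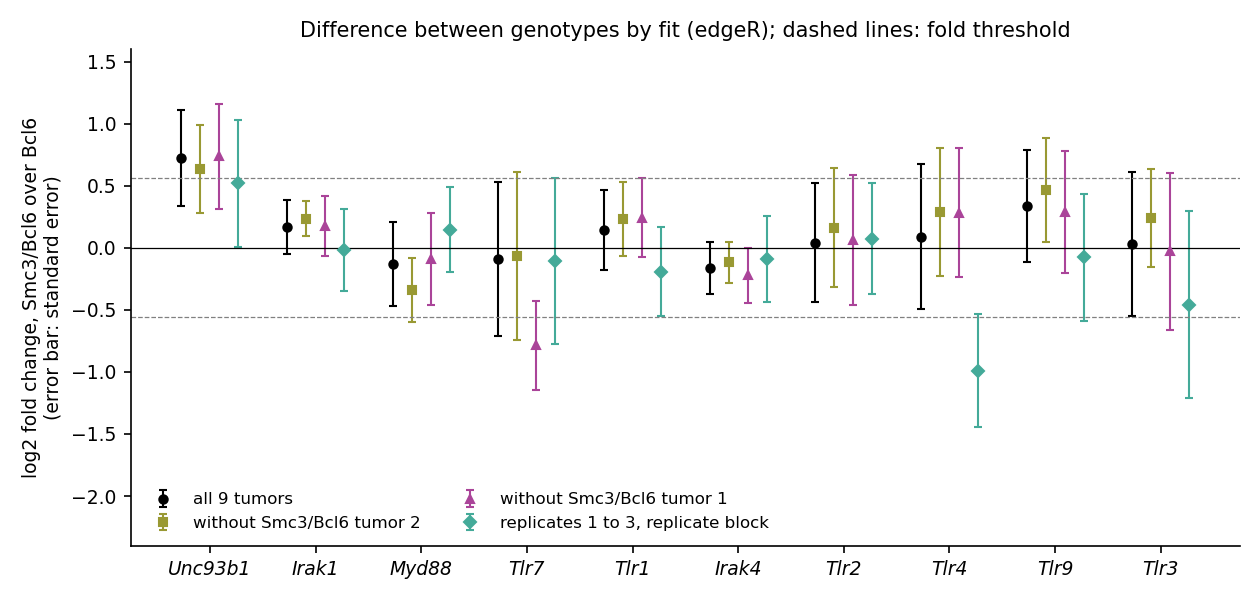
Log2 fold change of Smc3/Bcl6 over Bcl6 tumors from edgeR, with standard errors, for all 9 tumors (black circles), without Smc3/Bcl6 tumor 2 (olive squares), without Smc3/Bcl6 tumor 1 (purple triangles) and with the replicate block over replicates 1 to 3 (green diamonds). Dashed lines mark the fold threshold of 0.56. Unc93b1 lies above 0 in each fit, Tlr7 moves from -0.09 to -0.79 without Smc3/Bcl6 tumor 1 and Tlr4 from 0.09 to -0.99 under the block.

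To compare levels between genes, counts were divided by exon length and scaled to the same sum in every library, which gives TPM. The median over the 9 tumors was 1171 TPM for Unc93b1, 141 for Irak1, 126 for Myd88, 99.6 for Tlr7, 74.6 for Tlr1, 27.2 for Irak4, 25.5 for Tlr2, 15.3 for Tlr4, 6.11 for Tlr9 and 5.47 for Tlr3. Neighbours in this order were compared within tumors by an exact two-sided sign-flip permutation test, with Benjamini-Hochberg adjustment over the 9 comparisons. The order, and so the choice of pairs, came from the same TPM values. These p-values therefore describe the order and are not separate support for it. Unc93b1 exceeded Irak1 in 9 of 9 tumors (adjusted exact p = 0.0176), Tlr1 exceeded Irak4 in 9 of 9 (0.0176), Tlr2 exceeded Tlr4 in 8 of 9 (0.0264) and Tlr4 exceeded Tlr9 in 8 of 9 (0.0264). The other 5 pairs of neighbours, Irak1 and Myd88, Myd88 and Tlr7, Tlr7 and Tlr1, Irak4 and Tlr2, and Tlr9 and Tlr3, did not differ beyond their spread. Of these, Myd88 still exceeded Tlr7 in 8 of 9 tumors (adjusted exact p = 0.190) and Tlr7 exceeded Tlr1 in 7 of 9 (0.598).

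Of the summed TPM of 12 Toll-like receptors, the 6 receptors followed here made up 68.1% to 82.1%. Tlr7 was the most abundant receptor in 7 of 9 tumors, and Tlr1 in the other 2, Smc3/Bcl6 tumors 3 and 4. Tlr7 held 32.97% to 43.1% of the sum in Bcl6 tumors and 13.2% to 61.6% in Smc3/Bcl6 tumors. Tlr12, which is not among the 10 genes, held 3.46% to 23.4%. In Smc3/Bcl6 tumors 3 and 5 it held 16.3% and 23.4%, against 15.2% and 23.6% for Tlr7. The level of Unc93b1 was set over the summed level of the endosomal members Tlr3, Tlr7 and Tlr9, with Tlr12 and the other receptors left out. This ratio was 10.7, 6.31 and 6.60 in Bcl6 tumors 1, 2 and 3. In Smc3/Bcl6 tumors 1 to 6 it was 4.66, 21.04, 15.98, 22.9, 25.4 and 19.9. Smc3/Bcl6 tumor 1 was the lowest of the series and the other 5 were above every Bcl6 tumor. The means were 7.86 ± 2.44 (SD, n = 3) and 18.3 ± 7.39 (SD, n = 6), and permuting the log2 ratio gave an exact two-sided p = 0.107.

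**Figure D3:**
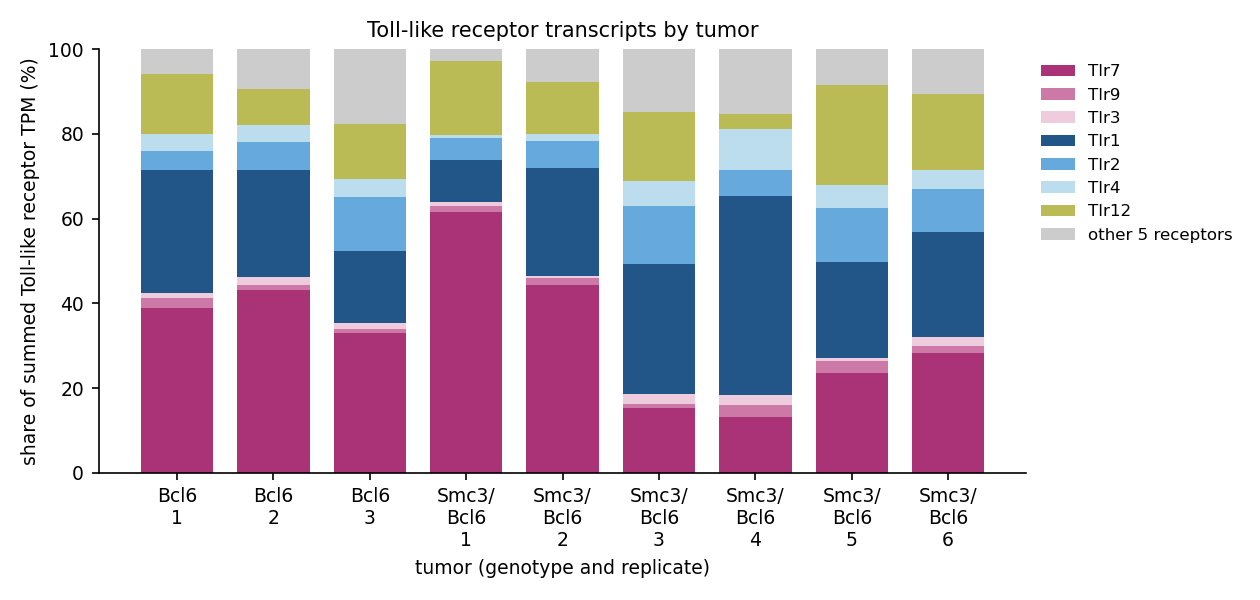
Share (%) of the summed Toll-like receptor TPM held by each receptor, in stacked bars from 0 to 100% for each of the 9 tumors. Endosomal members are in pink tones, surface members in blue, Tlr12 in yellow and the other 5 receptors in grey. Tlr7 takes 61.6% in Smc3/Bcl6 tumor 1 and 13.2% in Smc3/Bcl6 tumor 4, where Tlr1 takes 47.0%.

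Other genes of the pathway were read from lists of 53 genes, of which 52 were tested, and by edgeR 0 passed the thresholds in either direction and 0 had an unadjusted p below 0.05. At an unadjusted p below 0.05 DESeq2 gave 1 of them (Cnpy3) and limma with a weight per tumor 11, and after adjustment over all genes both gave 0. With the replicate block 51 of them could be tested, and 0 passed as higher and 5 as lower (Tlr13, Irak3, Il1rl1, Il18r1 and Il18rap), against 0.337% and 1.90% of the 13360 genes tested in that fit. By edgeR with all 9 tumors, the log2 fold changes of the 52 genes were positive for 30 and negative for 22, with a median of 0.08. They ranged from -1.41 (Il18r1, a receptor chain for IL-18 that also uses Myd88) to 1.19 (Cd36, a scavenger receptor that helps Tlr2). Of all 14057 genes tested, 8073 were positive. The 6 other Toll-like receptors were negative for 5 (median -0.29), and the 5 other receptors that use Myd88 for 4 (median -0.91). Positive values were held by 4 of 5 adaptors, 10 of 17 kinases and ligases, 2 of 3 transcription factors and 2 of 4 restraining genes. The 12 co-receptors and handling proteins were positive for 10, with a median of 0.35. Among these, Cnpy3, a chaperone that folds Toll-like receptors, averaged 109 ± 19.7 CPM in 3 Bcl6 and 150 ± 27.0 CPM in 6 Smc3/Bcl6 tumors (mean ± SD here and for the genes that follow). Its log2 fold change was 0.46 (standard error 0.24, unadjusted p = 0.0885 from edgeR), under the fold threshold. Hsp90b1, the heat shock protein that works with it, stood at -0.08 on the same scale (standard error 0.34). Of the other receptors, Tlr12 had 43.5 ± 17.9 CPM in Bcl6 and 57.3 ± 33.1 CPM in Smc3/Bcl6 tumors, Tlr6 18.3 ± 2.57 and 17.9 ± 3.04 CPM, and Tlr13 22.3 ± 27.3 and 14.0 ± 10.8 CPM. Tlr8, Tlr11 and Tlr5 had genotype means of 6.26 and 5.16, 4.38 and 3.22, and 0.655 and 0.512 CPM in Bcl6 and Smc3/Bcl6 tumors. Of the 5 adaptors, Pik3ap1 had 256 ± 40.6 CPM in Bcl6 and 312 ± 116 CPM in Smc3/Bcl6 tumors. Tirap, the bridge of Tlr2 and Tlr4 to Myd88, had 26.9 ± 7.39 and 31.1 ± 12.3 CPM, and Ticam1 26.4 ± 4.31 and 32.9 ± 13.9 CPM. Ticam2 had 8.44 ± 2.69 and 8.87 ± 3.29 CPM and Sarm1 1.88 ± 0.529 and 1.45 ± 0.900 CPM.

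Which genes followed B-cell or macrophage markers was read across the 9 tumors, as Pearson's r between log2 CPM of the gene and the mean log2 CPM of the list, with exact two-sided permutation tests over 362880 orderings and Benjamini-Hochberg adjustment over 20 relations. A gene and a list share the depth and the scaling of their library. In these data 0 of 20 relations reached an adjusted p below 0.05, and 4 had an unadjusted p below 0.05. How many of all genes tested relate to these lists at that p was not counted. The 4 relations therefore describe these genes and cannot be read as particular to them.

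Irak1 and Myd88 lay on opposite sides of the B-cell list. Irak1 had r = 0.87 (exact p = 0.00366, adjusted p = 0.0510), with a Spearman's rho of 0.85 (exact p = 0.00607, adjusted p = 0.121), and its r was positive with 10 of 10 markers. Leaving out Bcl6 tumor 3 and Smc3/Bcl6 tumor 4, the farthest from the median of the list, gave r = 0.74 (exact p = 0.0663), and leaving out Smc3/Bcl6 tumor 2 gave r = 0.83. Within the 6 Smc3/Bcl6 tumors r was 0.93 (exact p = 0.0153). The relation was carried by small differences, as Irak1 spanned only 1.49-fold in CPM. Myd88 had a negative relation, with r = -0.84 (exact p = 0.00510, adjusted p = 0.0510), rho = -0.72 (exact p = 0.0369, adjusted p = 0.246) and a positive r with 0 of 10 markers. It was -0.74 (exact p = 0.0589) without the same pair of tumors, -0.78 without Smc3/Bcl6 tumor 2 and -0.86 (exact p = 0.0333) within Smc3/Bcl6 tumors. Tlr9 had r = 0.65 with the B-cell list (exact p = 0.0676, adjusted p = 0.225) and a positive r with 10 of 10 markers, and Tlr1 r = 0.64 (exact p = 0.0628, adjusted p = 0.225) with 9 of 10. By rank, rho was 0.42 (exact p = 0.270) for Tlr9 and 0.53 (exact p = 0.148) for Tlr1. Without Bcl6 tumor 3 and Smc3/Bcl6 tumor 4, r was 0.51 and 0.42. Tlr3 had r = 0.47 (exact p = 0.199), 0.83 (exact p = 0.0181) within Smc3/Bcl6 tumors and 0.14 without Smc3/Bcl6 tumor 2.

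Tlr4 and Tlr7 lay on opposite sides of the macrophage list. Tlr4 had r = 0.70 (exact p = 0.0361, adjusted p = 0.180) and rho = 0.75 (exact p = 0.0255, adjusted p = 0.246), positive with 12 of 12 markers. It was 0.69 (exact p = 0.0728) without Bcl6 tumor 1 and Smc3/Bcl6 tumor 1, the farthest from the median of this list. Without Smc3/Bcl6 tumor 1 alone it was 0.47 (adjusted exact p = 0.471), so that its size depended on that tumor. It was 0.89 (exact p = 0.00531, adjusted p = 0.106) without Smc3/Bcl6 tumor 2 and 0.76 within Smc3/Bcl6 tumors. Tlr7 had r = -0.77 (exact p = 0.0181, adjusted p = 0.120) and rho = -0.57 (exact p = 0.121, adjusted p = 0.422), positive with 0 of 12 markers. Without Bcl6 tumor 1 and Smc3/Bcl6 tumor 1 it was -0.36 (exact p = 0.419), so that the relation depended on them. Without Smc3/Bcl6 tumor 1 alone it was -0.46 (adjusted exact p = 0.471). Within the 6 Smc3/Bcl6 tumors, among them tumor 1, it was -0.93 (exact p = 0.0167), and without Bcl6 tumor 3 it was -0.91 (adjusted exact p = 0.0288). Tlr2 had r = 0.34 with this list and Unc93b1 -0.19, and Unc93b1 had 0.02 with the B-cell list.

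**Figure D4:**
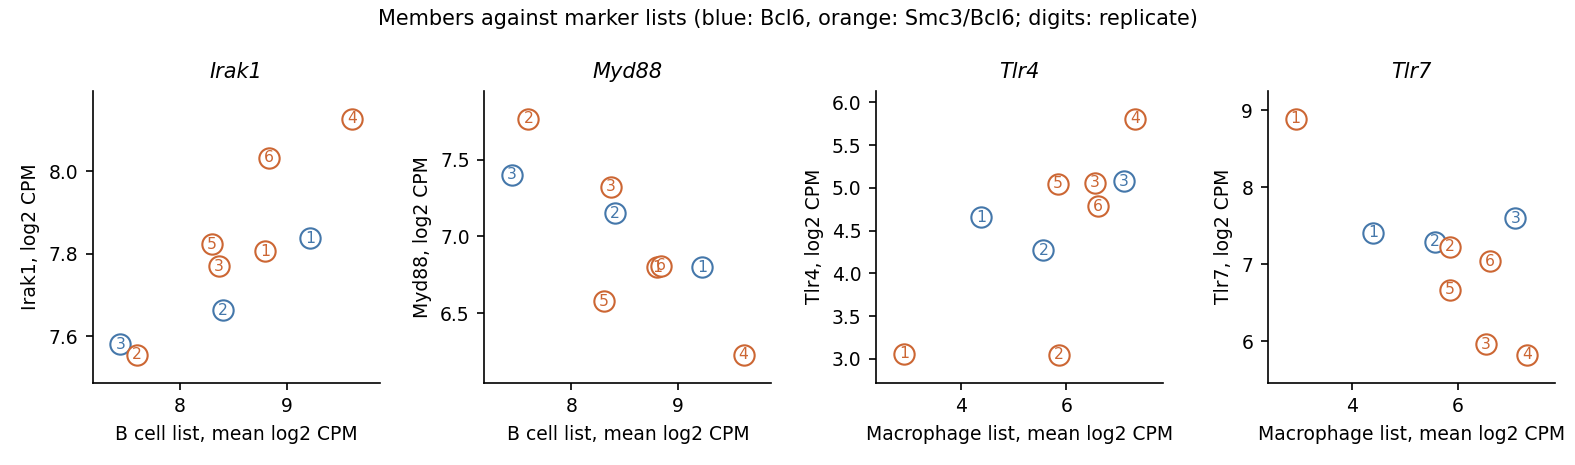
Log2 CPM of Irak1 and Myd88 against the mean log2 CPM of the B-cell markers, and of Tlr4 and Tlr7 against that of the macrophage markers. Each circle is a tumor with its replicate number, blue for Bcl6 and orange for Smc3/Bcl6. Irak1 has r = 0.87 and Myd88 r = -0.84 with the B-cell list, and the Tlr7 panel is drawn out by Smc3/Bcl6 tumor 1, which has the lowest macrophage level at 2.93.

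Among the 45 pairs of the 10 genes, 0 had an adjusted p below 0.05 and 6 an unadjusted p below 0.05 by the same exact test. Myd88 was negatively related to Irak1 (r = -0.87, exact p = 0.00257, adjusted p = 0.101; rho = -0.87, exact p = 0.00451, adjusted p = 0.137; r = -0.76 without Bcl6 tumor 3 and Smc3/Bcl6 tumor 2) and to Tlr9 (r = -0.85, exact p = 0.00448, adjusted p = 0.101; rho = -0.85, exact p = 0.00607, adjusted p = 0.137; r = -0.93 without Bcl6 tumor 2 and Smc3/Bcl6 tumor 3). Tlr1 was positively related to Tlr4 (r = 0.79, exact p = 0.00836, adjusted p = 0.125; rho = 0.73, exact p = 0.0311, adjusted p = 0.467; r = 0.59 without Smc3/Bcl6 tumors 1 and 4). Tlr7 was negatively related to both Tlr1 (r = -0.76, exact p = 0.0222, adjusted p = 0.200; rho = -0.55, exact p = 0.133, adjusted p = 0.596; r = -0.38 without Smc3/Bcl6 tumors 1 and 4) and Tlr4 (r = -0.74, exact p = 0.0220, adjusted p = 0.200; rho = -0.52, exact p = 0.162, adjusted p = 0.596; r = -0.70 without Smc3/Bcl6 tumors 1 and 2). The last of the 6 was Tlr1 with Irak1 (r = 0.71, exact p = 0.0293, adjusted p = 0.220; rho = 0.63, exact p = 0.0760, adjusted p = 0.489; r = 0.65 without Smc3/Bcl6 tumors 1 and 4).

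**Figure D5:**
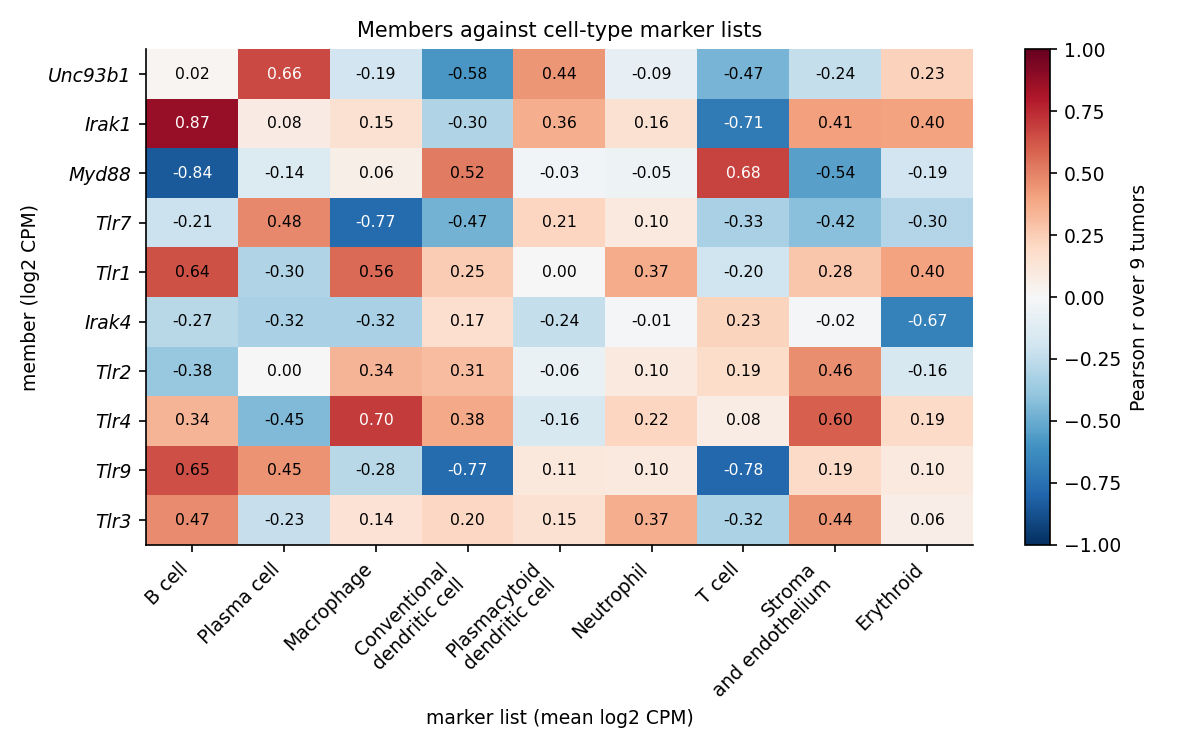
Pearson's r over the 9 tumors between log2 CPM of each gene (rows) and the mean log2 CPM of each of 9 marker lists (columns), from blue at -1 to red at 1. Irak1 (0.87) and Myd88 (-0.84) stand at the ends of the B-cell column, and Tlr4 (0.70) and Tlr7 (-0.77) at the ends of the macrophage column.

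The genes most like each member over the 9 tumors were named from 12365 tested genes by Pearson's r of log2 CPM. They were Spns3 (0.97), Erp27 and Caprin2 for Tlr1, Pld1 (0.93), Cass4 and Csf2ra for Tlr2, and Adcy7 (0.98), Il17ra and Dctn1 for Tlr3. For Tlr4 they were Dstyk (0.98), Tmem26 and Ict1os, for Tlr7 Zfp41 (0.95), Adora1 and Hsp90b1, and for Tlr9 Ermard (0.96), Nmnat3 and Metap1d. For Myd88 they were Slc9a3r1 (0.94), Ccl4 and Arpc5, for Unc93b1 Gna13 (0.96), Man2b2 and Upb1, for Irak1 Syn3 (0.97), Alpk2 and Pla2g4c, and for Irak4 Btbd11 (0.94), Lmnb1 and Ripk1. Hsp90b1 (r = 0.92 with Tlr7) is also one of the listed pathway genes. With 9 tumors and this many genes, values of this size describe the tumors and carry no test.

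RefSeq promoter windows of GRCm38.p6, 250 bases before to 50 after the start, were found for 7 of the 10 genes, in 9 windows, and were not found for Tlr4, Tlr7 and Unc93b1. Each was searched on both strands for GAGGAAG (bound by PU.1, a factor of B and myeloid cells), ATGCAAAT (the octamer read by Oct factors in B cells) and GAAACTGAA (an interferon response element), which do not overlap one another. They were held by 13.6%, 1.74% and 0.627% of all 32851 windows. The windows of the 4 genes below were picked because Tlr9, Tlr1 and Irak1 leaned with and Myd88 against the B-cell list in these same data. Tlr3 also had a positive r with that list, and its window, not shown, held none of these motifs. Whether a motif goes with the lean was not tested. Capitals mark motif matches, and the strand is that of the gene.
Tlr9 (chr9:106222348-106222647, plus strand): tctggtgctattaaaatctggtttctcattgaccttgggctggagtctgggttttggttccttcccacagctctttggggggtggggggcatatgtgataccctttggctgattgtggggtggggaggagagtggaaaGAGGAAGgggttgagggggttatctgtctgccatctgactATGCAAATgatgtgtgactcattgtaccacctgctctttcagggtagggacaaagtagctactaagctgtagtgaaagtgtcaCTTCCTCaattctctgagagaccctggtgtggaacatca
Tlr1 (chr5:64933509-64933808, minus strand): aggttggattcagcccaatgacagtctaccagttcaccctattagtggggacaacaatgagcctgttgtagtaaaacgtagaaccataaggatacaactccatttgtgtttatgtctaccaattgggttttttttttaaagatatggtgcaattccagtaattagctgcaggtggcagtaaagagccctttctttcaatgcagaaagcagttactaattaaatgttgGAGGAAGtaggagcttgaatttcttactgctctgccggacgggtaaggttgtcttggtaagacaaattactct
Irak1 (chrX:74023872-74024171, minus strand): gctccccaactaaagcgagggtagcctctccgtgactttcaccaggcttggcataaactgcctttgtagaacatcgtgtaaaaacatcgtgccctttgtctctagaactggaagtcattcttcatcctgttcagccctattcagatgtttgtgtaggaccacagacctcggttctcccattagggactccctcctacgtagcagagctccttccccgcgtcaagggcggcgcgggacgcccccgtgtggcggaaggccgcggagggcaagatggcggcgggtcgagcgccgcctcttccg
Myd88 (chr9:119339969-119340268, minus strand): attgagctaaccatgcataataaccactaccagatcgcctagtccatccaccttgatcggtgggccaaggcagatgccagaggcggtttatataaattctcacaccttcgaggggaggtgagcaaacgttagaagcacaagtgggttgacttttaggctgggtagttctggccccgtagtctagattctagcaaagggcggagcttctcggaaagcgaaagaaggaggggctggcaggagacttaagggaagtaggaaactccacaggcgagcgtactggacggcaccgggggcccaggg
The Tlr9 window held GAGGAAG starting at -112 and 11 (the start base is 0), the second on the opposite strand, and the octamer at -72. The first Tlr1 window held GAGGAAG at -23. In the other windows, those of Irak1 and Myd88 among them, none of these motifs was found. The windows also differed in CpG, with 0 CpG sites in Tlr9, and 3 in the first and 9 in the second Tlr1 window. There were 22 in Irak1, 16 in Irak4, 13 in Myd88, 11 in Tlr2 and 10 in Tlr3, and a median of 7 over all windows. A match is a run of letters, and binding was not measured in these samples.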

How the data were processed

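Per the methods of the study, RNA was prepared with the TruSeq kit, reads were aligned with STAR to mm10 with Gencode transcripts in the nf-core pipeline, and the authors deposited the featureCounts counts per gene without normalization; the submitters' notes also name R 4.0.2 and DESeq2 1.28.1. The table held 0 columns without a sample. Genotype and replicate came from the labels. Counts were fitted with edgeR 4.0.16 in R 4.3.3 (TMM, filterByExpr by genotype, quasi-likelihood F-test, p adjusted by Benjamini-Hochberg over 14057 genes). Calls needed p below 0.1 unadjusted and a log2 fold change beyond 0.56 in size, and log2 CPM used a prior count of 2. DESeq2 1.42.0 and limma 3.58.1 served as alternatives. Positions and exon lengths were those of GENCODE M21 (GRCm38), which held 97.9% of the identifiers. Correlations and single values used exact permutation, and scripts were tested on simulated data. The genes named are the 10 members, the pathway genes past the thresholds by edgeR with all 9 tumors, and the other Toll-like receptors and adaptors. The 3 genes most correlated with each member were also named, without unnamed gene models and immunoglobulin or T-cell receptor segments. Cnpy3, Hsp90b1, Cd36, Il18r1, Irak3, Il1rl1 and Il18rap were named after their values were seen. Members, lists and motifs were chosen with earlier results of these data known. Deviations from the genotype means had r = 0.47, 0.13 and 0.18 across 13360 genes between same-numbered tumors, for replicates 1, 2 and 3. Tumors of different numbers were not compared, so these values do not show that the numbers mark pairs. Only the fits with the replicate block took same-numbered tumors as pairs, from the labels alone, and the main fit did not. The p-values measure the spread between these 9 tumors.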

Additional observations from a re-analysis of the deposited data

Results flagged for a closer look

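Of 19 measures tested for a tumor far from the other Smc3/Bcl6 tumors (n = 6), 2 exceeded Dixon's critical value of 0.625, and chance gives about 1 in 20. The macrophage list was lowest in Smc3/Bcl6 tumor 1 at a mean log2 CPM of 2.93, with the nearest tumor at 5.84, a gap of 0.666 of the range. The same tumor had the highest Tlr7 level, 473 CPM, and the Tlr7 difference between genotypes was -0.09 with it and -0.79 without it on the log2 scale. The plasmacytoid dendritic cell list was highest in Smc3/Bcl6 tumor 6 at 4.53, with the nearest tumor at 3.36, a gap of 0.665 of the range. Its 5 markers did not peak together. Siglech (70.0 CPM) and Cd300c (7.53 CPM) were highest in that tumor. Ccr9 (156 CPM) and Pacsin1 (76.1 CPM) were highest in Smc3/Bcl6 tumor 5, and Cox6a2 (37.5 CPM) in Smc3/Bcl6 tumor 2. The list mean therefore does not show by itself that tumor 6 held more of these cells. Tlr7 and Tlr9, which such cells are known to use, had r = 0.21 and 0.11 with that list over the 9 tumors. None of the 10 genes was itself past this value.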

How the results depend on the processing

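Of the 10 genes, 0 were higher past the thresholds without the filter on low counts, with the length and GC offset, with the replicate block and with both, and 1 was lower (Tlr4) with the replicate block. Over all genes, 180 were higher and 122 lower, against 342 higher with DESeq2, 576 and 812 without the filter, 642 and 1002 with limma, 192 lower with the tissue label as covariate, 45 and 254 with the replicate block, and 67 and 252 with the block and the offset. Leaving out each tumor gave 84 to 339 genes higher and 61 to 321 lower, and 0 to 1 of the 10 genes in each direction. Higher counts were 84 without Bcl6 tumor 2, 339, 303 and 98 without Smc3/Bcl6 tumors 2, 3 and 6; lower counts were 240 without Bcl6 tumor 1, and 194, 321 and 61 without Smc3/Bcl6 tumors 2, 3 and 6.

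The sign of small log2 fold changes turned. With the replicate block they were -0.19 for Tlr1, -0.46 for Tlr3, -0.99 for Tlr4, -0.0776 for Tlr9, 0.15 for Myd88 and -0.0163 for Irak1. With the block and the offset they were -0.19 for Tlr1, -0.0196 for Tlr2, -0.25 for Tlr3, -0.72 for Tlr4, 0.0228 for Tlr7, -0.16 for Tlr9 and 0.0325 for Irak4, and with the tissue label as covariate -0.23 for Tlr4. The block changed no call other than those of Unc93b1 and Tlr4. Leaving out each tumor gave -0.0840 to 0.24 for Tlr1, -0.36 to 0.90 for Tlr2, -0.20 to 0.24 for Tlr3, -0.25 to 0.32 for Tlr4, -0.79 to 0.0534 for Tlr7, -0.35 to 0.0194 for Myd88 and 0.52 to 0.92 for Unc93b1. Tlr9, Irak1 and Irak4 kept their sign there.

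The count of genes following the B-cell list (0) became 1, Irak1, with deviations from genotype means (r = 0.90) and with the median of standardized markers (r = 0.90), and on leaving out Bcl6 tumor 1 (r = 0.91) or Smc3/Bcl6 tumor 6 (r = 0.91), with 0 to 1 over the tumors left out. Negative relations also passed an adjusted exact p of 0.05. Myd88 did so with the B-cell list when edgeR's RLE scaling replaced TMM (r = -0.88, adjusted exact p = 0.0458) and without Smc3/Bcl6 tumor 5 (r = -0.93, adjusted exact p = 0.0134). Tlr7 did so with the macrophage list without Bcl6 tumor 3 (r = -0.91, adjusted exact p = 0.0288). Weak correlations turned: Tlr3 (-0.0525) and Irak1 (-0.0594) with the macrophage list by the median of standardized markers. Unc93b1 with the B-cell list turned with edgeR's RLE scaling (-0.0209), by ranks (-0.10) and by deviations from genotype means (-0.0901). Leaving out each tumor, the ranges that crossed 0 with the macrophage list were -0.0923 to 0.42 for Myd88 and -0.16 to 0.36 for Irak1, and with the B-cell list -0.49 to 0.14 for Tlr7, -0.21 to 0.33 for Unc93b1 and -0.65 to 0.00903 for Irak4. Without division by exon length, 4 places in the order of levels changed. The cause of these changes was not tested. Among the 7 tumors labelled only as lymph node, a comparison added after seeing the data, 171 genes were higher and 150 lower, Unc93b1 alone of the 10 genes passed the thresholds, and Tlr2 (-0.27) and Tlr3 (-0.19) turned. The mesenteric label holds 1 tumor of each genotype, too few for a test. Tlr3 and Tlr9 rest on 16 to 220 and 44 to 151 reads per tumor, which limits their precision, and 3 Bcl6 tumors limit every comparison of genotypes.
Of the 52 other pathway genes, 7 were higher and 5 lower with limma (all genes: 642 and 1002 of 14057). By edgeR with all 9 tumors it was 0 and 0 (180 and 122 of 14057). DESeq2 gave 1 and 0 (342 and 101 of 13741), and the tissue label as covariate 1 and 3 (130 and 192 of 14057). The block with the offset gave 0 and 6 of 51 (67 and 252 of 13360). Without immunoglobulin or T-cell receptor segments it was 1 and 0 (208 and 101 of 13781). By edgeR without Smc3/Bcl6 tumor 3 it was 2 and 3 (303 and 321 of 13830). Of the other tumors, leaving out Bcl6 tumor 1 gave 0 and 1 (126 and 240 of 14637). Bcl6 tumor 3 (226 and 126 of 14594) or Smc3/Bcl6 tumor 1 (202 and 146 of 13897) gave 2 and 0. Smc3/Bcl6 tumor 4 (191 and 148 of 13762) or 5 (186 and 102 of 13843) gave 1 and 0.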

Other observations

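Against the 7 marker lists other than those of B cells and macrophages, 0 of 70 relations reached an adjusted p below 0.05 and the smallest adjusted p was 0.656 (exact permutation tests). Of these, 4 had an unadjusted p below 0.05, and the share of all genes tested that relate to these lists was not counted here either. With the T-cell list, Tlr9 had r = -0.78 (exact p = 0.0235; rho = -0.68, exact p = 0.0503), Irak1 had r = -0.71 (exact p = 0.0374; rho = -0.65, exact p = 0.0666) and Myd88 had r = 0.68 (exact p = 0.0461; rho = 0.58, exact p = 0.108), the reverse of their signs with the B-cell list. Without Smc3/Bcl6 tumors 1 and 6, the farthest from the median of that list, these were -0.87, -0.78 and 0.77. The fourth was Tlr9 with the conventional dendritic cell list (r = -0.77, exact p = 0.0224; rho = -0.65, exact p = 0.0666; r = -0.69 without Smc3/Bcl6 tumors 1 and 5). The T-cell list had r = -0.73 with the B-cell list and 0.70 with the conventional dendritic cell list. These 4 relations are therefore not separate from one another or from those with the B-cell list. Unc93b1 had its highest r with the plasma cell list (r = 0.66, exact p = 0.0563; rho = 0.63, exact p = 0.0760; r = 0.65 without Bcl6 tumor 1 and Smc3/Bcl6 tumor 3). Irak4 had r = -0.67 with the erythroid list (exact p = 0.0535; rho = -0.63, exact p = 0.0760; r = -0.65 without Bcl6 tumor 1 and Smc3/Bcl6 tumor 4).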
